A study of Rattus norvegicus with 18 samples.

Results

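The kidneys of spontaneously hypertensive rats (SHR) and of Wistar-Kyoto rats (WKY), the normotensive control strain, were compared at 6 weeks of age. The arrays were chosen by their labels alone, which gave 3 arrays labelled SHR and 3 labelled WKY at this age, 6 of the 18 arrays of the series. Of the 30367 probes on the array, 20416 were tested, namely those that rose well above background on each of the 3 arrays of either strain or both. The account covers the few large differences and the many that stayed under 4-fold, and the functions that the genes with such differences have.

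The whole series holds kidney RNA of 3 strains, WKY, SHR and the stroke-prone SHRSP, in rats aged 3 or 6 weeks, with 3 arrays in each of the 6 groups. Each array was labelled as a biological replicate of 1 strain and age of rats without treatment and was hybridized in a single colour to a rat whole-genome oligonucleotide array. The question of the comparison is which kidney transcripts set the hypertensive strain apart at 6 weeks of age. As a measure of brightness, the upper quartile of intensity among spots clearly over background was 3955, 3613 and 3689 on the arrays labelled WKY and 3996, 3688 and 3722 on those labelled SHR, and between 72.2% and 75% of the 42877 spots that were not controls were well above background. With 3 arrays in a group, each value given here has limited precision.

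The kidney sets blood pressure over the long term through the salt and water it keeps, and much of that work falls to the proximal tubule, which takes back most of the filtered load and burns fatty acids to pay for it. Angiotensins and kinins, vasoactive lipids made from arachidonic acid, nitric oxide signalling, corticosteroids and vitamin D all act in the kidney on salt, water and vessel tone. Cells under strain turn on further programmes, such as the chaperones of the heat shock response, the enzymes that make and use glutathione, and the molecules that present antigens to T cells.

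A level is given below as the log2 of a probe's signal minus that of the upper quartile (75th percentile) of spots over background on its own array, so that 0 stands for a bright spot and each unit for a 2-fold step. A difference is the mean level on the arrays labelled SHR minus that on the arrays labelled WKY, in log2 units with its standard error (SE). Higher and lower always refer to the arrays labelled SHR relative to those labelled WKY at 6 weeks, and a gene or probe is called different when its Benjamini-Hochberg adjusted p from limma, over all probes tested, was under 0.05. Where a gene had several probes, the brightest over the 6 arrays stands for it.

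The nearest match of the hypertensive strains between the ages did not follow their labels, which has to be known before any result is read. Of the 55 probes that lay over 4-fold apart between the arrays labelled SHRSP and SHR at 3 weeks, the mean of the arrays labelled SHR at 6 weeks was nearer to SHRSP at 3 weeks for 45 and nearer to SHR at 3 weeks for 10. The arrays labelled SHRSP at 6 weeks showed the opposite, nearer to SHR at 3 weeks for 47 probes and nearer to SHRSP at 3 weeks for 8. The WKY arrays, which share neither label, were nearer to SHR at 3 weeks for 34 of these probes at 3 weeks and for 38 at 6 weeks. Counted for each array alone, 44, 46 and 47 of the probes put the 3 arrays labelled SHR at 6 weeks nearer to the 3-week SHRSP group.

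Agtrap, whose product binds the type 1 angiotensin receptor and dampens its signalling, had a mean level of 1.45 in WKY, 1.25 in SHR and -3.91 in SHRSP at 3 weeks, and of 1.70, -2.95 and 1.96 in the same order at 6 weeks. Vegfb, a growth factor of vessels and muscle that was chosen after its values were seen, had levels of -0.25, -8.69 and -0.51 at 3 weeks and of -0.37, -0.49 and -8.55 at 6 weeks. Each of these genes was thus dim in 1 hypertensive group at each age, under different labels. Labels exchanged at either age and strain differences that change sides with age cannot be told apart from these arrays, and no array was moved. The main counts are therefore also given with the arrays labelled SHRSP at 6 weeks in place of those labelled SHR, and that second comparison uses the same WKY arrays.

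**Figure D1:**
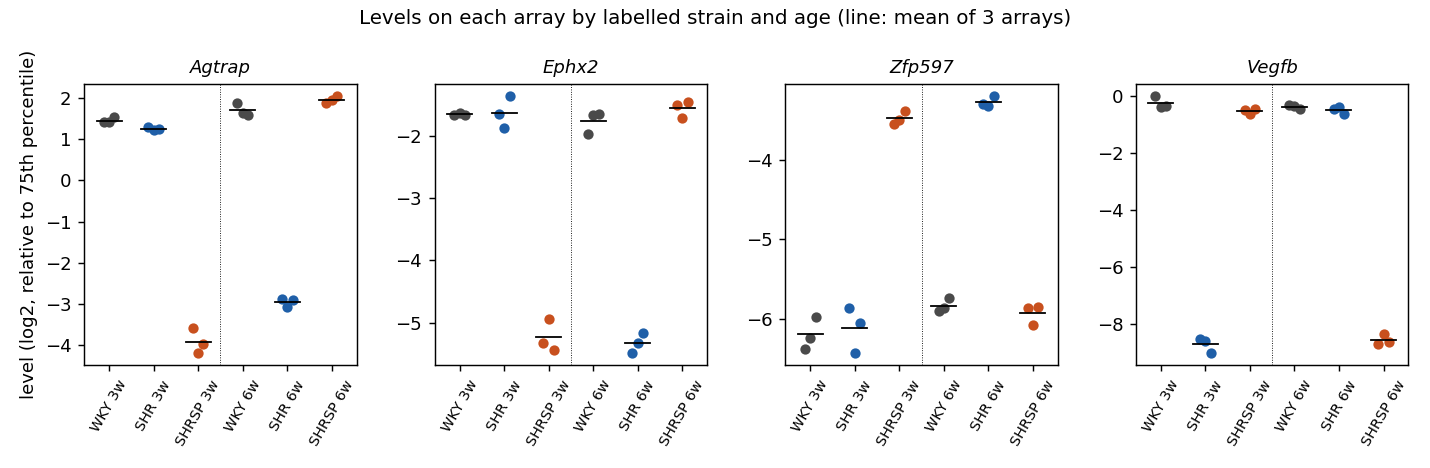
Level of 4 genes on each of the 18 arrays (vertical axis, log2 relative to the 75th percentile) by labelled strain and age (horizontal axis), with a line at each mean of 3 arrays. Agtrap is at -3.91 in the arrays labelled SHRSP at 3 weeks and at -2.95 in those labelled SHR at 6 weeks, and Vegfb is at -8.69 in SHR at 3 weeks and -8.55 in SHRSP at 6 weeks.

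In the plot of these levels by label, Ephx2 followed Agtrap in being dim in the arrays labelled SHRSP at 3 weeks and SHR at 6 weeks, while Zfp597 was higher in those same arrays than in the other 4 groups. The slides add a further limit. All 3 arrays labelled WKY at 6 weeks lay on slide 3 and all 3 labelled SHR on slide 4, both scanned on the same day, so slide and strain cannot be told apart. Of the arrays labelled SHRSP at 6 weeks, replicate 1 lay on slide 4, and replicates 2 and 3 lay on slide 5, scanned on another day. The comparison that uses them therefore differs in slide and scan day as well as in label.

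Markers of the kidney's own cells were bright, as the labelled tissue asks. All 10 proximal tubule markers were tested, and Miox, the brightest of them, had levels of 6.42, 6.57 and 6.56 on the arrays labelled WKY and 6.43, 6.52 and 6.47 on those labelled SHR. Umod, the uromodulin of the thick ascending limb, had levels of 6.58, 6.69 and 6.69 and of 6.51, 6.63 and 6.64. Both genes overlapped between the strains. Summed on the linear scale, the proximal tubule markers had an SHR to WKY ratio of 1.004, the podocyte markers 1.06, the thick ascending limb markers 0.935, the distal convoluted tubule markers 0.887, the principal cell markers 0.994 and the intercalated cell markers 0.983. In tissue of mixed cells, fewer cells of a type and less RNA per cell cannot be told apart.

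Most of the differences between the strains were small. Of the 20416 probes tested, 5957 (29.2%) were called, 1292 higher and 4665 lower, and 865 (4.24%) of them differed by more than 2-fold and 166 (0.813%) by more than 4-fold. Differences under 4-fold made up 5791 of the 5957, or 97.2%. Of them, 3674 probes lay under 1.5-fold, 1418 between 1.5-fold and 2-fold and 699 between 2-fold and 4-fold. Between 1.5-fold and 4-fold, 417 probes were higher and 1700 lower. Above 2-fold there were 203 higher and 662 lower, and above 4-fold 54 higher and 112 lower. The levels of the 3 and 3 arrays did not overlap for 5928 of the 5957 called probes, against 12159 of the 20416 tested (59.6%).

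The surplus of lower probes rested in part on the scaling. The median difference over the tested probes was -0.12, and when the arrays were scaled to the median of these probes it was 0.02, the called probes were 3165 higher and 2764 lower, and the share that was higher went from 21.7% to 53.4%. Above 2-fold the split became 259 higher and 493 lower, with 34.4% higher in place of 23.5%, and between 1.5-fold and 4-fold it became 702 higher and 1090 lower. Above 4-fold, normexp background correction with an offset of 50 left 19 higher and 16 lower. The lowest signals well above background were 28.1 to 33.5 on these 6 arrays, so an offset of this size draws differences of dim probes toward 0. Quantile normalization gave 3222 higher and 3098 lower, and scaling to the 75th percentile of all probes gave 2280 and 3521. Among the 12485 genes, the brightest probe gave 934 higher (7.48%) and 2481 lower (19.9%), with 142 higher (1.14%) and 226 lower (1.81%) above 2-fold, around a median of -0.09 that became 0.05 after scaling to the median, where 2309 genes were higher (18.5%) and 1364 lower (10.9%). Lists of genes are therefore read against this median and these shares of all genes, no set test was run, and their counts under the second scaling follow in brackets as higher then lower.

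**Figure D2:**
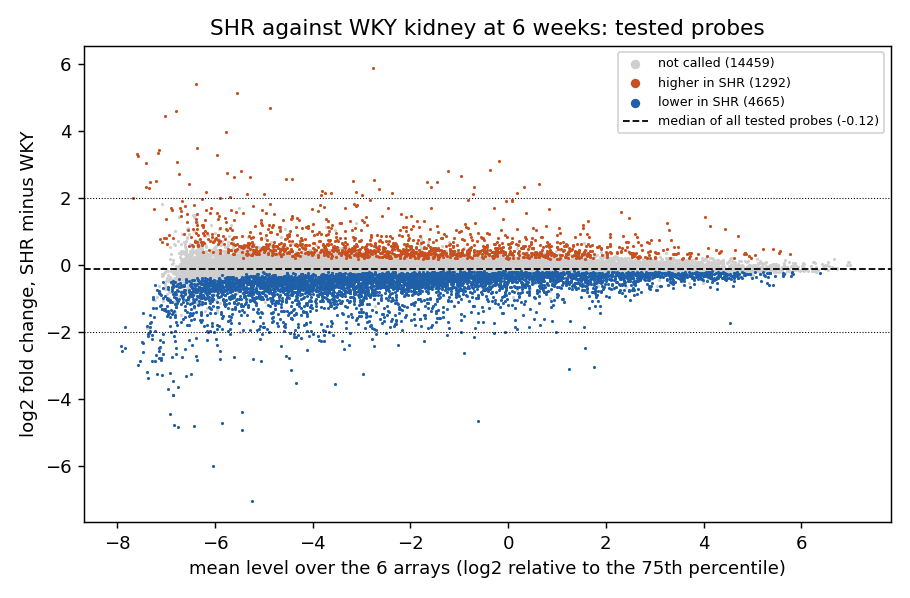
Difference of each of the 20416 tested probes (vertical axis, log2, SHR minus WKY at 6 weeks) against its mean level over the 6 arrays (horizontal axis, log2 relative to the 75th percentile). The dashed line marks the median of -0.12 and the dotted lines 4-fold; 1292 probes in red were higher and 4665 in blue lower, under the label SHR.

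With the arrays labelled SHRSP at 6 weeks in place of those labelled SHR, 1103 probes were higher and 4582 lower, 163 and 653 above 2-fold, and 48 and 117 above 4-fold. The plot of all probes shows that calls at bright levels reached down to small differences and that the largest differences lay among dim probes. When only probes well above background on all 6 arrays were tested, 26 were higher and 44 lower by more than 4-fold.

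The largest difference among genes measured above background on all 6 arrays was that of Adtrp, a membrane enzyme that cleaves lipid esters and regulates the tissue factor pathway inhibitor. Its levels were -5.65, -5.65 and -5.82 on the arrays labelled WKY and 0.19, 0.26 and 0.10 on those labelled SHR, and its probe lies at chr17:28879511-28879570 of rn4. The groups lay far apart, with every SHR array high, a difference of 5.89 (SE 0.11) or 59.3-fold with a limma adjusted p of 2.82e-13. At 3 weeks the same difference was 5.93 in the arrays labelled SHR, and the arrays labelled SHRSP at 6 weeks gave 5.28.

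Acox2, the peroxisomal oxidase of branched-chain fatty acids and bile acid intermediates, had levels of -2.76, -2.58 and -2.55 in WKY and 0.16, 0.19 and 0.17 in SHR. Every array labelled SHR was higher, by 2.80 (SE 0.09) and 6.98-fold. Gc, the carrier of vitamin D in plasma, had levels of -1.04, -2.84 and -1.48 in WKY and 1.20, 0.80 and 1.14 in SHR, a difference of 2.83 (SE 0.32) with groups that did not overlap although the WKY arrays were spread over a wide range. Cyp2c11, a P450 typical of male rats that hydroxylates testosterone and makes epoxides of arachidonic acid, varied in the same way, with levels of -0.81, -2.89 and -1.53 in WKY and 1.88, 1.07 and 1.13 in SHR. Its difference was 3.10 (SE 0.45). Cftr, the chloride channel mutated in cystic fibrosis, was 5.60-fold higher, and its fainter probe was above background in SHR only.

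The other genes among the 10 largest of this kind were Rdh16, a retinol dehydrogenase, at 2.67, the receptor Gpr35 at 2.64, the zinc finger gene Zfp597 at 2.55, the solute carrier Slc49a3 at 2.53 and Myl11, the regulatory light chain of fast muscle myosin, at 2.5. None of these 10 overlapped between the groups, since the rule that named them, and the 10 lower genes below, required it. In the arrays labelled SHRSP at 6 weeks, 9 of the 10 were higher than WKY as well, and Zfp597 was not, with a difference of -0.10.

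The largest drop among genes above background on all 6 arrays was that of Agtrap, with levels of 1.89, 1.63 and 1.59 in WKY and -2.87, -3.07 and -2.90 in SHR and a probe at chr5:165154364-165154423 of rn4. Every array labelled SHR was lower, by -4.65 (SE 0.12) or 25.1-fold with a limma adjusted p of 8.05e-12. Ephx2, the soluble epoxide hydrolase that turns the vasodilator epoxides of arachidonic acid into diols, had levels of -1.98, -1.67 and -1.66 in WKY and -5.48, -5.32 and -5.16 in SHR. It was 11.7-fold lower with no overlap. Both calls were lost with the arrays labelled SHRSP at 6 weeks, which gave 0.25 for Agtrap and 0.20 for Ephx2.

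Albfm1, a relative of albumin, was among the brighter genes of the group, with levels of 3.17, 3.28 and 3.36 in WKY and 0.21, 0.19 and 0.28 in SHR. The arrays labelled SHR were 8.22-fold lower for it, and a second probe gave -3.08 beside -3.04. The receptor tyrosine kinase Ros1 was lower by -3.53, the ferritin receptor Timd2 by -2.63, the keratin Krt76 by -2.51, the tetraspanin Tspan1 by -2.48, the transcription factor Mef2b by -2.37, the beta-defensin Defb29 by -2.27 and the crystallin Cryga by -2.25. For these 8 genes the arrays labelled SHRSP at 6 weeks were lower than WKY too, by between -1.56 for Defb29 and -3.16 for Krt76.

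Some genes were above background in only 1 strain, so their differences are bounds. Cyp8b1, the sterol 12-alpha-hydroxylase of bile acid synthesis, was above background on no array labelled WKY and had levels of -2.88, -3.22 and -2.82 in SHR, at least 16.7-fold higher. Serpina3m, a serine protease inhibitor, was at least 10.3-fold higher, the neutral sphingomyelinase Smpd3 at least 5.94-fold, the transcription factor Zbtb16 at least 5.30-fold and the oxidoreductase Oxnad1 at least 4.72-fold. On the other side, the alpha globin gene Hba-a3 was at least 15.1-fold lower, with levels of -2.75, -3.33 and -3.04 in WKY and no SHR array above background. The unconventional myosin Myo16 was at least 13.0-fold lower, the interferon-induced Ifi44l at least 5.30-fold, the neuronal pentraxin Nptx1 at least 4.28-fold and the glyoxalase relative Haghl at least 4.05-fold. For Smpd3 a second probe was above background in SHR only as well. In the arrays labelled SHRSP at 6 weeks Hba-a3 was at -0.34 and Haghl at 0.054, and neither was called there.

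The 12 higher genes with the lowest adjusted p between 1.5-fold and 4-fold had varied roles. Aqp3, the water and glycerol channel of the basolateral membrane of principal cells, had levels of 1.07, 0.75 and 0.98 in WKY and 2.19, 2.10 and 2.13 in SHR. All arrays labelled SHR were higher, by 1.21 (SE 0.09) or 2.31-fold. Fatty acid and drug metabolism was represented by the medium-chain acyl-CoA synthetase Acsm5 at 1.69, the acetyl-CoA hydrolase Acot12 at 1.27 and the sulfotransferase Sult1b1 at 1.30. Transport was represented by the nucleoside carrier Slc28a2 at 1.47 and the zinc carrier Slc30a2 at 1.17, next to Aqp3.

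The remaining higher genes of this group were Cfap126, a protein of cilia, at 1.95, the plasma glycoprotein Hrg at 1.91, Ahrr, the repressor of the aryl hydrocarbon receptor, at 1.54, the transcription factor Etv1 at 1.14, the cyclophilin Ppic at 1.09 and the prion protein gene Prnp at 0.99. Ppic was bright, with levels of 3.75, 3.92 and 3.99 in WKY and 5.01, 4.92 and 4.99 in SHR. The groups did not overlap, but the arrays labelled SHRSP at 6 weeks gave -0.29 for Ppic and -0.48 for Hrg, so these calls turned with the label. The second probes of Acsm5 and Slc28a2 were higher too, by 0.84 and 0.37.

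Among the 12 lower genes with the lowest adjusted p in this range, Cyp4a3 was the brightest. It belongs to the P450s that hydroxylate arachidonic acid to 20-HETE, and its levels were 5.35, 5.48 and 5.38 in WKY and 3.74, 3.70 and 3.61 in SHR. Every array labelled SHR was lower, by -1.72 (SE 0.07) or 3.29-fold with a limma adjusted p of 4.15e-10. Ptgr1, a reductase of prostaglandins and leukotrienes, had levels of 1.80, 2.0 and 2.08 in WKY and -0.06, 0.00 and -0.01 in SHR, 3.95-fold lower without overlap. Endog, a nuclease of mitochondria, was lower by -1.86, the vitamin E carrier Afm by -1.82 and the carbonyl reductase Cbr1 by -1.13.

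The others were the phosphatases Dusp19 at -1.89 and Ptprj at -1.84, the nuclease relative Tatdn3 at -1.75, the Mediator subunit Med17 at -1.61, the zinc finger gene Zfp14 at -1.59, Chmp1b of the ESCRT-III complex at -1.26 and the membrane protein Slc66a2 at -1.22. Probes disagreed for a few of these. The fainter probe of Zfp14 was higher by 0.56, and that of Ptprj gave -0.16 and was not called. With the arrays labelled SHRSP at 6 weeks the call of Zfp14 was lost, at -0.23.

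Of the 32 tested members of the heat shock and protein folding list, 18 were higher, 14 were not called and 0 were lower (25 and 0), and the median difference was 0.37, which was 0.45 above that of all genes. By comparison, 7.48% of all genes were higher. Most of the differences were well under 2-fold, and only Hspa1b went past it.

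Hspa1b, the inducible chaperone Hsp70, had levels of -2.56, -2.22 and -2.52 in WKY and -0.38, -0.63 and -1.22 in SHR. Every array labelled SHR was higher, by 1.69 (SE 0.21) or 3.22-fold with a limma adjusted p of 5.02e-05. Hspa8, its constitutive relative and the brightest member, had levels of 5.18, 5.41 and 5.48 in WKY and 5.76, 5.76 and 5.84 in SHR, 1.34-fold higher without overlap. Of the other cytosolic chaperones, the small heat shock protein Hspb1 was higher by 0.74, the co-chaperones Dnajb1 by 0.66, Bag3 by 0.37 and Dnaja1 by 0.31, and Hsph1, the nucleotide exchange factor of Hsp70, by 0.48. Hsp90aa1 and Hsp90ab1, which encode the cytosolic Hsp90 proteins, were not called, at 0.10 and 0.25, and passed the test with the arrays scaled to the median.

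The endoplasmic reticulum had its share of the list. Creld2, a chaperone of its lumen, had levels of -1.76, -1.81 and -1.72 in WKY and -0.78, -0.85 and -0.91 in SHR. The groups did not overlap, and the difference was 0.92 (SE 0.18). Herpud1, which takes part in the degradation of misfolded proteins, was higher by 0.83, the secreted protective factor Manf by 0.82, the stress-induced pseudokinase Trib3 by 0.77, Hspa5, the chaperone BiP, by 0.54, and its partners Dnajb11 by 0.53, Sdf2l1 by 0.52 and Dnajb9 by 0.45. Xbp1, a transcription factor of the unfolded protein response, was higher by 0.41. The factors Atf4 and Ddit3, at 0.16 and 0.15, were not called. Hspb1, Dnajb1 and the members named here other than Hspa1b, Hspa8, Creld2, Herpud1 and Manf were chosen after their values were seen.

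The same list had a median of -0.11 in the arrays labelled SHR at 3 weeks. By the test of the interaction 8 of its 32 members differed between the ages, next to 7.35% of all genes. The arrays labelled SHRSP at 6 weeks, set against the same WKY arrays, had a median of 0.01, with 7 members higher and 4 lower. Hspa1b was at -0.034 there.

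The heat shock factor binds repeats of the letters GAA in alternating direction, and promoters of higher members are shown for that reason. RefSeq windows of 300 bases around the gene start in the GRCr8 assembly, were at hand for 27 of the tested members and for 16 of the 18 that were higher, but not for Hspa1b. The motif GAANNTTC, which reads the same on both strands, occurred in 10 of these 27 windows and in 7 of the 16, and in 8.59% of all 33469 windows. In the windows of Hspb1 at chr12:26432252-26432551 (- strand), Dnajb1 at chr19:41431092-41431391 (- strand), Hsph1 at chr12:10427118-10427417 (+ strand) and Hspa8 at chr8:50080264-50080563 (+ strand), printed in the direction of the gene, capitals mark each match.
Hspb1: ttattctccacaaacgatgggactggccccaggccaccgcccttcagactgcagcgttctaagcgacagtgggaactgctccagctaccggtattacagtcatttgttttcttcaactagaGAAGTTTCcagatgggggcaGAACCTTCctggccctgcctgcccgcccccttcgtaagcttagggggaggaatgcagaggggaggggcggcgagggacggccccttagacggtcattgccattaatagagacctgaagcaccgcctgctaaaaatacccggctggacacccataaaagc
Dnajb1: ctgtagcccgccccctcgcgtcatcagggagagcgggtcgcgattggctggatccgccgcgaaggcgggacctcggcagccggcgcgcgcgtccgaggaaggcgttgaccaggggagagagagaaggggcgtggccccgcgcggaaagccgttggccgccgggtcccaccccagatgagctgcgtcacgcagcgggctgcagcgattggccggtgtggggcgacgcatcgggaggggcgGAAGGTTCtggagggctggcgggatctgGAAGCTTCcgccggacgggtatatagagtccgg
Hsph1: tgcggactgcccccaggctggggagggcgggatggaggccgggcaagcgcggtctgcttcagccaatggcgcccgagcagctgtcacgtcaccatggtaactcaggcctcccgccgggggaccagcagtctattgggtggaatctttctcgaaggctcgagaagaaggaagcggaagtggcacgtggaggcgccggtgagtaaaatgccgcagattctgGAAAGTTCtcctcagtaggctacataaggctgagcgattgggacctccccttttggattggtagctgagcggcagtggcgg
Hspa8: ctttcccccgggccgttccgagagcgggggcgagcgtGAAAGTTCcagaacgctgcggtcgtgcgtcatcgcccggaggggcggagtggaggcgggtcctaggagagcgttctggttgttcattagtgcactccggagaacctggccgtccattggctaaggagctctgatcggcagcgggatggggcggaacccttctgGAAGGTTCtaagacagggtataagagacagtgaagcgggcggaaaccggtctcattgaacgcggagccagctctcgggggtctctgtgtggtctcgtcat
A match describes these letters only and is not a measured binding site.

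Of 16 tested genes induced by glucocorticoids, 8 were higher, 7 of them by more than 2-fold, 8 were not called and 0 were lower (10 and 0), next to 7.48% of all genes higher. The median was 0.51, which was 0.60 above that of all genes. Fkbp5, a co-chaperone that restrains the glucocorticoid receptor, had levels of -1.70, -1.92 and -1.74 in WKY and 0.35, -0.12 and 0.25 in SHR. All arrays labelled SHR were higher, by 1.94 (SE 0.24) or 3.85-fold with a limma adjusted p of 5.42e-05.

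The metallothioneins, small proteins that bind zinc and copper, followed. Mt1 had levels of 2.80, 3.66 and 3.47 in WKY and 4.64, 4.6 and 5.03 in SHR, 2.72-fold higher, and Mt2A was 2.25-fold higher, neither with overlap. Sgk1, the kinase that keeps the epithelial sodium channel at the membrane, had levels of -0.23, 0.07 and 0.69 in WKY and 1.52, 1.12 and 1.42 in SHR. It was higher on every array labelled SHR, by 1.17 (SE 0.22). Ddit4, an inhibitor of mTOR signalling, was higher by 1.1, the sulfotransferase Sult1a1 by 1.1 and the transcription factor Klf9 by 0.70, and Zbtb16 was given above as a bound. Ddit4 and Klf9 were chosen after their values were seen.

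Other members of the list did not pass the test. Tsc22d3, also known as GILZ, was at 0.32 and was called with the arrays scaled to the median and with replicate number as a block, Per1 at -0.18 and the phosphatase Dusp1 at -0.21, all chosen after their values were seen. The receptor itself, Nr3c1, was lower by -0.58, but its fainter probe was at -0.014 and not called. At 3 weeks the median of the list was 0.80 in the arrays labelled SHR. By the interaction 1 of its 16 members differed between the ages, next to 7.35% of all genes. The arrays labelled SHRSP at 6 weeks had a median of 0.20 and -0.64 for Sgk1. The motif ACANNNTGT, which occurs in 6.86% of all promoter windows, was in 2 of 14 windows of tested members and in 0 of 7 of those that were higher.

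**Figure D3:**
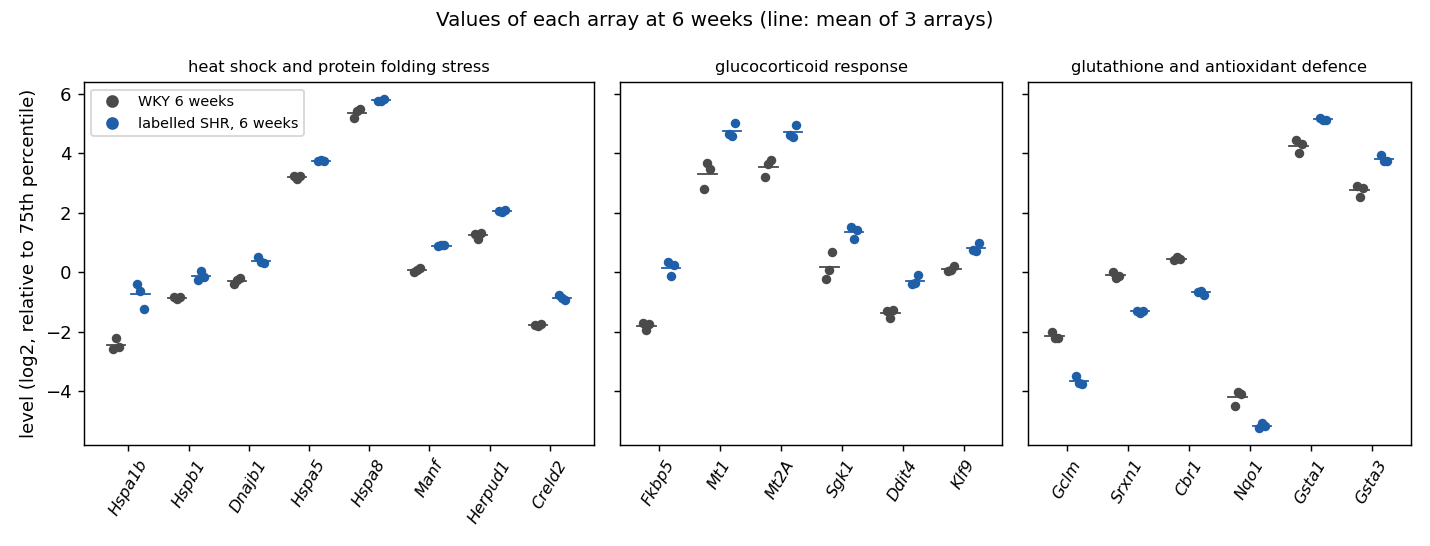
Level of members of 3 gene lists on each array at 6 weeks (vertical axis, log2 relative to the 75th percentile; black, 3 arrays labelled WKY; blue, 3 labelled SHR; line, mean). Fkbp5 is 1.94 and Hspa1b 1.69 higher in the arrays labelled SHR, and Gclm differs by -1.51.

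Antigen presentation was the next group with a median well above that of all genes. Of 27 tested members, 12 were higher and 4 lower (16 and 2), next to 7.48% and 19.9% of all genes (18.5% and 10.9%). The median was 0.34, which was 0.42 above that of all genes. With replicate number as a block 9 were higher. Genes of the class II pathway of antigen-presenting cells were among the higher members. RT1-DMa, which loads peptides on class II molecules, had levels of -2.40, -2.49 and -2.59 in WKY and -1.67, -1.54 and -1.61 in SHR. It was higher on every array labelled SHR, by 0.89 (SE 0.11), while RT1-Bb was higher by 0.83, the invariant chain Cd74 by 0.76 and RT1-Db1 by 0.64. Cd74 was bright, with levels of 2.48, 2.53 and 2.64 in WKY and 3.21, 3.38 and 3.34 in SHR, which did not overlap.

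Class I genes went both ways. RT1-A1 was higher by 0.35, RT1-CE16 by 0.41 and RT1-S3 by 0.39, all chosen after their values were seen, and all 3 calls were lost with replicate number as a block. RT1-N2 was lower by -0.70, with a fainter probe 2.83-fold lower, RT1-N3 by -0.53 and Micb by at least 2.70-fold, and B2m, the light chain shared by class I molecules, was at -0.24 and not called. The calls of RT1-N3 and of RT1-DOb, which was lower by -0.37, were lost with the arrays scaled to the median. Class I and class II genes differ in sequence between rat strains, and how well each probe matches either strain was not tested. In the arrays labelled SHRSP at 6 weeks the list had a median of 0.01, and the calls of RT1-Bb and RT1-Db1 were lost.

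Of 14 tested markers of macrophages and myeloid cells, 4 were higher, 1 lower and 9 not called (5 and 1), next to 7.48% higher and 19.9% lower among all genes. Their summed level was 24.9, 27.8 and 28.3 on the arrays labelled WKY and 31.8, 35.6 and 35.7 on those labelled SHR, with Lyz2 the most abundant and a ratio of 1.27, or 1.104 without the 2 markers that changed most. Cd163 and Mrc1 were above background on no array. In the arrays labelled SHRSP at 6 weeks 0 of these markers were higher and 2 lower, with a median of -0.086. Lyz2, a lysozyme, was higher by 0.42 and the complement subunit C1qa by 0.63, whereas the growth factor receptor Csf1r was lower by -0.61 and its second probe was at -0.029 and not called. Endothelial markers had 4 of 10 higher and 1 lower (6 and 1) and a ratio of 1.22, or 1.04 without the 2 that changed most. Their summed level was 12.6, 12.1 and 11.85 in WKY and 15.4, 15.35 and 13.85 in SHR, and Plvap, the most abundant, was higher by 0.40. Of 10 tested markers of T, NK and B cells, 0 were higher and 5 lower (0 and 3), with a ratio of 0.740, or 0.786 without the 2 that changed most. Their summed level was 0.901, 1.01 and 0.984 in WKY and 0.699, 0.728 and 0.715 in SHR, Cd3d was the most abundant, and markers not above background on any array included Cd2, Cd3e, Cd5, Cd79b, Jchain and Ms4a1. Lyz2, C1qa, Csf1r and Plvap were chosen after their values were seen. The part of these cells in the differences of the antigen presentation genes was not tested.

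**Figure D4:**
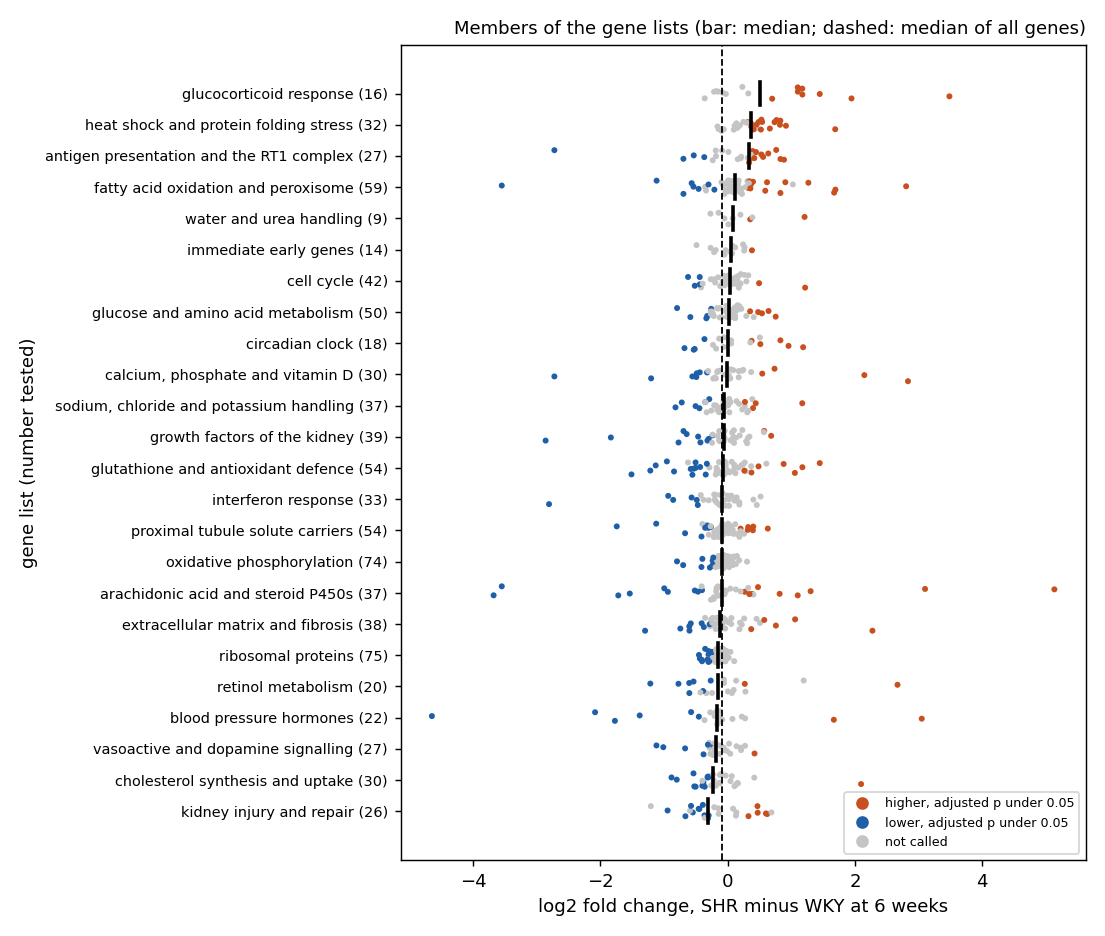
Difference of each tested member (horizontal axis, log2, SHR minus WKY at 6 weeks) in 24 gene lists (vertical axis), with a bar at each list's median and a dashed line at -0.09, the median of all genes. The medians run from 0.51 for glucocorticoid response to -0.30 for kidney injury and repair, and lists near the dashed line change sides with the scaling.

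The plot of the lists shows medians from 0.51 to -0.30, with single members far outside them on both sides. Most lists of transport and energy metabolism lay close to the median of all genes. The counts of called members in the lists and marker sets below stand next to 7.48% of all genes higher and 19.9% lower (18.5% and 10.9%). Counts near these shares do not set a list apart.

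Of 59 tested genes of fatty acid oxidation, 14 were higher and 8 lower (27 and 4), with a median of 0.12, which was 0.21 above that of all genes. Acox2, Acsm5 and Acot12 were given above, and many of the other differences were small. Among mitochondrial enzymes there were 0.40 for Acads, 0.34 for Acadm, 0.33 for Cpt1a and 0.31 for Acadvl, and among peroxisomal enzymes 0.62 for Phyh and 0.36 for Cat. Angptl4, a secreted inhibitor of lipoprotein lipase that PPAR factors induce, was higher by 0.91.

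Against this, the peroxisomal glycolate oxidase Hao1 was lower by -1.12, the ketone body dehydrogenase Bdh1 by -0.70 and the peroxisomal multifunctional enzyme Hsd17b4 by -0.57. Hao1 turned to 1.57 in the arrays labelled SHRSP at 6 weeks, where Bdh1, at -0.094, and Hsd17b4, at -0.17, were not called. Hao2, the brightest member, was lower by -0.21 with levels of 5.89, 5.93 and 5.91 in WKY and 5.69, 5.71 and 5.70 in SHR. That call was lost with the arrays scaled to the median, where the limma adjusted p was 0.530, and with replicate number as a block. Ppara and Ppargc1a, which govern this programme, were at 0.31 and 0.03 and were not called. Acads, Acadm, Cpt1a, Acadvl, Phyh, Cat, Angptl4, Ppara and Ppargc1a were chosen after their values were seen.

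Of 30 tested genes of cholesterol synthesis and uptake, 1 was higher and 11 lower (1 and 5), next to 7.48% and 19.9% of all genes (18.5% and 10.9%), with a median of -0.22, which was -0.14 from that of all genes. Sqle, the squalene epoxidase, had levels of 0.70, 0.21 and 0.28 in WKY and -0.41, -0.44 and -0.61 in SHR. It was lower on every array labelled SHR, by -0.88 (SE 0.13), and the squalene synthase Fdft1 was lower by -0.80, Hsd17b7 by -0.54 and Hmgcs1, at the entry of the pathway, by -0.53. The single higher member was Scd, the desaturase of fatty acids, with levels of -4.83, -2.68 and -4.6 in WKY and -1.70, -2.12 and -1.99 in SHR. The groups did not overlap, and the limma adjusted p was 0.0337, but the call was lost on leaving out 5 of the 6 arrays in turn and with the arrays labelled SHRSP at 6 weeks, at 1.58.

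Enzymes of arachidonic acid and steroids held some of the strongest differences in both directions. Of 37 tested members, 9 were higher and 9 lower (11 and 7), 4 on each side by more than 2-fold, around a median of -0.09. Ephx2 and Cyp4a3 were lower, as given above, while Cyp4a2, which also makes 20-HETE, was as bright in both strains, with levels of 5.95, 5.69 and 5.92 in WKY and 5.94, 5.86 and 5.87 in SHR that overlapped. Ptgds, which makes prostaglandin D2, was lower by -1.0 and Hpgd, which breaks prostaglandins down, by -0.94, both chosen after their values were seen. The steroid dehydrogenase Hsd17b2 was lower by -1.54, and Hsd17b13, a protein of lipid droplets, was at least 3.57-fold lower. Among the higher members, Sult1a1 was at 1.1 beside Sult1b1 at 1.30, Cyp2c11 at 3.10 and Cyp8b1 as a bound.

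The retinol list of 20 tested genes had 2 higher and 7 lower (3 and 6), with a median of -0.15. Rdh16 stood at 2.67 and Dhrs3, a reductase of retinal, at 0.27. The lower genes included Crabp1, a binding protein of retinoic acid, which was above background on 1 array labelled SHR, the retinoic acid hydroxylase Cyp26a1 at -0.77, the retinol binding protein Rbp2 at -0.61, Stra6, a carrier of retinol into cells, at -0.60 and Aldh1a1, the brightest member, at -0.39. Cyp26a1 was at 0.037 in the arrays labelled SHRSP at 6 weeks, and Dhrs3 lost its call on leaving out any of the 6 arrays.

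Antioxidant genes went apart within 1 list. Of 54 tested members, 7 were higher and 13 lower (12 and 9), next to 7.48% and 19.9% of all genes (18.5% and 10.9%). The median was -0.07, close to that of all genes. Gclm, the modifier subunit of the enzyme that starts glutathione synthesis, had levels of -2.0, -2.20 and -2.19 in WKY and -3.48, -3.71 and -3.75 in SHR. All SHR arrays were lower, by -1.51 (SE 0.28) or 2.85-fold. Gclc, the catalytic subunit and the brightest member, was at -0.08 and not called. Srxn1, which reactivates peroxiredoxins, had levels of 0.02, -0.18 and -0.13 in WKY and -1.29, -1.35 and -1.30 in SHR, 2.32-fold lower without overlap, and the quinone reductase Nqo1 was lower by -0.96.

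Glutathione S-transferases, which attach glutathione to reactive compounds, went both ways. Gsta1 had levels of 4.45, 4.0 and 4.33 in WKY and 5.20, 5.11 and 5.11 in SHR. The difference was 0.88 (SE 0.10) with no overlap, and Gsta3 was higher by 1.05, although its fainter probe was lower by -0.28. Of the lower genes, Gstt2 was at -0.84, Gstp1 at -0.51 and the peroxiredoxin Prdx1 at -0.50, all chosen after their values were seen. The call of Gstp1 was lost with the arrays scaled to the median. Nfe2l2, which drives many genes of the list, was at -0.17 and not called, and its partner Keap1 was at 0.09, and both were chosen after their values were seen. The letters TGACNNNGC, the core of the antioxidant response element searched on both strands, were in 15 of 47 promoter windows of tested members, in 4 of 7 that were higher and 3 of 11 that were lower, against 12.1% of all windows.

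Of the 22 tested genes of blood pressure hormone systems, 2 were higher and 6 lower (4 and 6), around a median of -0.16. Above 2-fold there were 2 higher and 4 lower, next to 1.14% and 1.81% of all genes. Among the precursors, Agt, which encodes angiotensinogen, had levels of 0.26, -0.32 and 0.07 in WKY and 1.74, 1.55 and 1.73 in SHR. All arrays labelled SHR were higher, by 1.67 (SE 0.19) or 3.18-fold with a limma adjusted p of 2.40e-05. Kng2, a kininogen gene, had levels of -3.62, -3.24 and -2.95 in WKY and -5.47, -5.35 and -5.24 in SHR, 4.24-fold lower without overlap. Kng1 was lower by -1.77, while the related Kng2l1 was at least 2.21-fold higher and was not above background on any array labelled WKY. Symbols follow the current RefSeq, and the annotation of the array calls the probe of Kng2 by the symbol Kng1 and that of Kng2l1 by the symbol Kng2.

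Ace makes angiotensin II and breaks down bradykinin. Its levels were -2.27, -2.32 and -2.24 in WKY and -3.70, -3.60 and -3.68 in SHR. The groups lay apart by -1.38 (SE 0.13), and a fainter probe was above background in WKY only. Ctsa, the brightest member, was at 0.07. Among the receptors and their partners, Agtr1a was lower by -0.45 and Nr3c1 by the brighter of its probes, and Agtrap was given above. In the arrays labelled SHRSP at 6 weeks Ace was at -0.19 and Agt at 0.43, and neither was called. Agtr1a and Nr3c1 were chosen after their values were seen.

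Vasoactive signalling had 1 higher and 6 lower of 27 tested members (4 and 3), so the larger side turned with the scaling, and 7.48% and 19.9% of all genes were higher and lower. The median was -0.19. Both subunits of soluble guanylate cyclase, the receptor of nitric oxide, were lower. Gucy1a1 had levels of -1.43, -1.41 and -1.19 in WKY and -2.41, -2.36 and -2.30 in SHR. Gucy1b1 had levels of -2.91, -2.94 and -2.70 and of -4.01, -4.01 and -3.90. Neither gene overlapped, with differences of -1.01 (SE 0.10) and -1.12 (SE 0.09), though a fainter probe of Gucy1b1 gave -0.35 and was not called. The endothelin receptor Ednra was lower by -0.67. Nos3, which makes nitric oxide in endothelium and was chosen after its values were seen, was at 0.04 and not called.

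Ion transport was close to the median of all genes. In the list for sodium, chloride and potassium, 4 of 37 tested members were higher and 6 lower (9 and 3). Apart from Sgk1, the members named by the rule differed by less than 2-fold. Slc9a3, the sodium-hydrogen exchanger of the proximal tubule, was lower by -0.82, but its fainter probe was at 0.10 and not called. The potassium channel Kcnma1 was lower by -0.72, the kinase Wnk4, whose call was lost with the arrays scaled to the median, by -0.51 and the kinase Oxsr1 by -0.45. On the higher side stood the scaffold Pdzk1 at 0.44, the bicarbonate carrier Slc4a7 at 0.40 and the ubiquitin ligase Nedd4l at 0.27. The calls of Wnk4, Slc4a7 and Nedd4l were lost on leaving out 5 of the 6 arrays in turn, and that of Kcnma1 on leaving out 3. With normexp background correction the calls of Pdzk1, Wnk4, Slc4a7 and Nedd4l were lost. Slc4a7 was at -0.16 in the arrays labelled SHRSP at 6 weeks.

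Water and urea handling had 2 of 9 tested members higher and 0 lower (3 and 0). Aqp1, the channel of the proximal tubule and thin limb, had levels of 3.62, 3.45 and 3.52 in WKY and 3.93, 3.85 and 3.88 in SHR. It was 1.28-fold higher without overlap. Aqp2, the channel that vasopressin regulates, had levels of 4.95, 4.68 and 4.79 in WKY and 4.73, 4.66 and 4.59 in SHR. Those groups overlapped, and the gene was not called, at -0.14.

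Calcium, phosphate and vitamin D genes included 4 higher and 7 lower of 30 tested (9 and 4), next to 7.48% and 19.9% of all genes (18.5% and 10.9%). Cyp24a1, which inactivates vitamin D, had levels of -4.65, -4.97 and -4.48 in WKY and -2.62, -2.62 and -2.41 in SHR. SHR was higher on all 3 arrays, by 2.15 (SE 0.23) or 4.43-fold, and Cyp27b1, which makes the active hormone, was higher by 0.74. S100g, a calcium binding protein that vitamin D induces, was higher by 0.54. On the lower side, Cldn16, which lets calcium and magnesium through the thick ascending limb, had levels of -1.16, -1.05 and -1.07 in WKY and -2.43, -2.13 and -2.33 in SHR, 2.30-fold lower without overlap. Cldn14, which blocks that path, was lower with levels of -4.68, -3.32 and -4.77 in WKY and -7.36, -6.55 and -7.04 in SHR, of which 1 was well above background, so the size was not measured, and the call was lost with the arrays labelled SHRSP at 6 weeks. The calcium-sensing receptor Casr was lower by -0.49. Slc34a1, the phosphate carrier and brightest member, was at -0.23 and not called.

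The solute carriers of the proximal tubule had 6 higher and 8 lower of 54 tested (11 and 4), with a median of -0.09 that equals that of all genes. The carrier Slc22a13, which takes up urate and nicotinate, had levels of -3.51, -2.68 and -2.71 in WKY and -4.91, -4.66 and -4.56 in SHR. It was lower on every array labelled SHR, by -1.74 (SE 0.21), and a second probe gave -1.33. Slc17a4 was lower by -1.12 and the peptide carrier Slc15a2 by -0.67. Slc17a3, a urate carrier, was higher by 0.63, the sulphate carrier Slc26a1 by 0.40, the organic anion carrier Slc22a22 by 0.40 and the dicarboxylate carrier Slc13a3 by 0.32. The call of Slc22a22 was lost with only the 6 arrays fitted and on leaving out 3 of them in turn, that of Slc13a3 with normexp background correction and without WKY replicate 3, and both with the arrays labelled SHRSP at 6 weeks. The cystine carrier subunit Slc3a1, the brightest of the list, was at -0.16 and not called. Glucose and amino acid metabolism had 5 of 50 higher and 5 lower (16 and 2). G6pc1, the last enzyme of gluconeogenesis, was higher by 0.75, the proline dehydrogenase Prodh by 0.64 and the pyruvate carboxylase Pc by 0.54, while Hpd of tyrosine breakdown was lower by -0.80 and the betaine enzyme Bhmt by -0.59.

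Of 26 tested genes that mark injury of the kidney, 5 were higher and 10 lower (6 and 5), next to 7.48% and 19.9% of all genes, so the larger side turned with the scaling. The median of -0.30 was -0.22 from that of all genes. The fibrinogen chains Fgb and Fga were lower by -0.95 and -0.66, ceruloplasmin, Cp, by -0.58 and Havcr1, the injury marker KIM-1 of the proximal tubule, with 1 array labelled SHR above background, by a size that was not measured. Havcr1 lost its call with the arrays scaled to the median and on leaving out 5 of the 6 arrays in turn, and a fainter probe of Cp, at -0.28, was not called. Clusterin, Clu, had levels of -0.75, -0.59 and -0.47 in WKY and -0.12, 0.08 and 0.08 in SHR. It was higher by 0.62 without overlap, as were the keratins Krt18 by 0.60 and Krt19 by 0.47 and the trefoil factor Tff3, the brightest member, by 0.47. Clu and Krt18 were at -0.083 and -0.10 in the arrays labelled SHRSP at 6 weeks.

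Matrix genes had 5 higher and 8 lower of 38 tested (8 and 5). The proteoglycan Spock2 was 4.84-fold higher, with levels of -3.93, -3.66 and -3.75 in WKY and -1.66, -1.33 and -1.53 in SHR that did not overlap. Ccn2, a factor that promotes fibrosis, was higher by 1.06, the basement membrane collagen Col4a2 by 0.76 and the gelatinase Mmp9 by 0.57, and lower were Col15a1 by -0.75, the small proteoglycan Dcn by -0.60 and elastin, Eln, by -0.60. Ccn2 was at -0.46 in the arrays labelled SHRSP at 6 weeks. Fibroblast markers, 1 of 7 tested higher and 3 lower (1 and 1), next to 19.9% of all genes lower, had a summed ratio of 0.777, or 0.853 without the 2 that changed most. Their sums were 12.3, 13.1 and 14.0 in WKY and 9.39, 10.47 and 10.8 in SHR, with Col1a2 the most abundant, and their part in the result was not tested.

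Growth factor genes had 2 higher and 10 lower of 39 tested (9 and 6), next to 7.48% and 19.9% of all genes, and here too the larger side turned with the scaling. Gdnf, which guides the ureteric bud, was at least 2.22-fold lower, hepatocyte growth factor, Hgf, was lower by -0.77 and Igfbp7 by -0.69. Igfbp4 was higher by 0.57 and Wnt4 by 0.68, a call lost on leaving out 4 of the 6 arrays in turn. Of the cell cycle genes, 2 of 42 were higher and 4 lower (6 and 3). The replication helicase subunit Mcm7 was higher, with levels of -1.46, -1.48 and -1.53 in WKY and -0.33, -0.22 and -0.27 in SHR. That was 2.32-fold without overlap, while Birc5 was lower by -0.62 and Cks2 by -0.52.

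The circadian clock had 5 members higher and 4 lower of 18 tested (6 and 1). Higher were Nr1d1 at 1.18, Dbp at 0.83, Bhlhe40 at 0.51, Per2 at 0.38 and Hlf by at least 1.92-fold, and lower were Bmal1 at -0.68, Npas2 at -0.53, Cry1 at -0.52 and Per3 at -0.37. Per2 was chosen after its values were seen. Dbp had levels of 0.79, 0.91 and 1.14 in WKY and 1.48, 1.79 and 2.06 in SHR, while Bmal1 had -0.78, -0.90 and -0.99 in WKY and -1.44, -1.53 and -1.73 in SHR. Neither gene overlapped, but Cry1 did, and Npas2, Cry1 and Per3 lost their calls with the arrays scaled to the median. Per3 also lost its call with replicate number as a block, and the fainter probes of Npas2 and Per3, at -0.047 and 0.087, were not called. The labels give no time of day for the tissue. The motif CACGTG was in 2 of 15 promoter windows of the list and in 6.42% of all windows.

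Immediate early genes had 1 of 14 tested higher and 0 lower (4 and 0), and Ier2, the brightest of them, was at 0.04. The higher gene was Klf2, a transcription factor of endothelium, at 0.38, which was at -0.065 in the arrays labelled SHRSP at 6 weeks and lost its call with normexp background correction. Interferon-induced genes had 0 of 33 higher and 6 lower (1 and 6), next to 7.48% and 19.9% of all genes, and a median of -0.08 near that of all genes. Beside Ifi44l, the chemokines Cxcl9 and Cxcl10 were lower by -0.94 and -0.86, Ifi44 by -0.57 and the GTPase Igtp, the brightest member, by -0.47, though its fainter probe was at -0.066 and not called. The call of Cxcl9 was lost with normexp background correction, at -0.29. That of Cxcl10 was lost without WKY replicate 3 and that of Ifi44 without SHR replicate 1. Of the 74 genes of oxidative phosphorylation, 0 were higher and 10 lower, next to 7.48% and 19.9% of all genes. With the arrays scaled to the median these counts turned to 8 higher and 3 lower, next to 18.5% and 10.9%. Cox7c, at -0.80, and Uqcrq, at -0.70, were lower under both scalings. Ribosomal protein genes had 0 of 75 higher and 21 lower (1 and 5), or 17 lower with replicate number as a block, next to 19.9% of all genes lower. The called members were all under 2-fold, with Rps19 at -0.45 by the brightest of 3 probes and not called by the others, and Rpl41, the brightest, at -0.10 and not called.

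Of the 17 liver markers 12 were tested, 5 higher and 2 lower (5 and 2). Their summed level was 7.13, 6.01 and 6.87 on the arrays labelled WKY and 11.9, 10.6 and 10.04 on those labelled SHR, with a ratio of 1.63, which was 1.065 without Cyp2c11 and Hrg. With the arrays labelled SHRSP at 6 weeks 3 were higher and 6 lower, with a median of -0.22. The most abundant was Apoc3, at -0.11 and not called, while Alb, Apoa2 and Ttr were above background on no array. Higher were Cyp2c11, Hrg, Apob by 1.21, Ambp by 1.08 and F2 by 0.50, and lower were Fgb and Fga, several of which the kidney itself can express.

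Of 12 markers of nervous tissue 7 were tested, 4 higher and 0 lower (4 and 0). The summed level was 0.147, 0.147 and 0.143 in WKY and 0.236, 0.234 and 0.230 in SHR, a ratio of 1.60, or 1.37 without Mbp and Nefm, with Mbp the most abundant and Nefl, Snap25, Stmn2, Syt1 and Tubb3 above background on no array. Mbp, a protein of myelin, was higher by 0.80, the neurofilament Nefm by 1.15, and Nefh by at least 2.51-fold. Of 15 skeletal muscle markers 7 were tested, 1 higher and 4 lower (1 and 4), with sums of 1.18, 1.21 and 1.18 in WKY and 1.11, 1.19 and 1.03 in SHR and Eno3, which was not called, the most abundant. The median of the tested members was -0.90, with Ryr1 lower by -1.62, Acta1 by -1.24, Tnnc2 by -1.03 and Mb by -0.90, while Myl11 was higher, as given above. Atp2a1, Ckm, Myh1, Myh2, Myl1, Pvalb and Tnnt3 were not above background on any array. Adrenal markers had 0 of 5 tested higher and 2 lower (0 and 1), with sums of 0.970, 0.873 and 0.886 in WKY and 0.684, 0.671 and 0.590 in SHR, a ratio of 0.713, or 0.881 without the 2 that changed most, Th the most abundant and Star, Cyp11a1, Cyp11b2, Dbh and Chgb above background on no array. None of 5 red blood cell or 7 adipose tissue markers tested was called by limma. The genes of this and the previous paragraph that no earlier paragraph names were chosen after their values were seen. The part of such tissue in the differences was not tested.

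The strain difference was then set against that at 3 weeks, which comes from other arrays. Of the 12578 genes that could be tested, 925 (7.35%) had a difference at 6 weeks that differed from that at 3 weeks by the interaction of strain and age, 254 above and 671 below. Among probes there were 1898 of 20577, 350 above and 1548 below. Leaving out each of the 6 arrays at 6 weeks in turn gave 203 to 295 above and 977 to 1195 below. No 3-week array was left out. The count above was larger under the other scalings given below. The pattern of the labels bears on these counts directly. With the arrays labelled SHRSP at 3 weeks in place of those labelled SHR, 4478 probes were called, 662 above and 3816 below.

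Of the 166 probes over 4-fold at 6 weeks, 119 could be tested in the arrays labelled SHR at 3 weeks, and 58 were called there with the same sign, 37 of them over 4-fold. In the arrays labelled SHRSP at 3 weeks 131 could be tested and 99 were called with the same sign, 59 over 4-fold. For the 865 probes over 2-fold the counts were 238 of 724 and 374 of 762, with 34 and 120 called in the opposite direction. Over all tested probes, 1586 of 19664 were called in the arrays labelled SHR at 3 weeks and 6061 of 20122 in those labelled SHRSP. The larger counts in the arrays labelled SHRSP, in both directions, have to be read against that larger share. Both counts at 3 weeks use the same WKY arrays and are given side by side only.

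**Figure D5:**
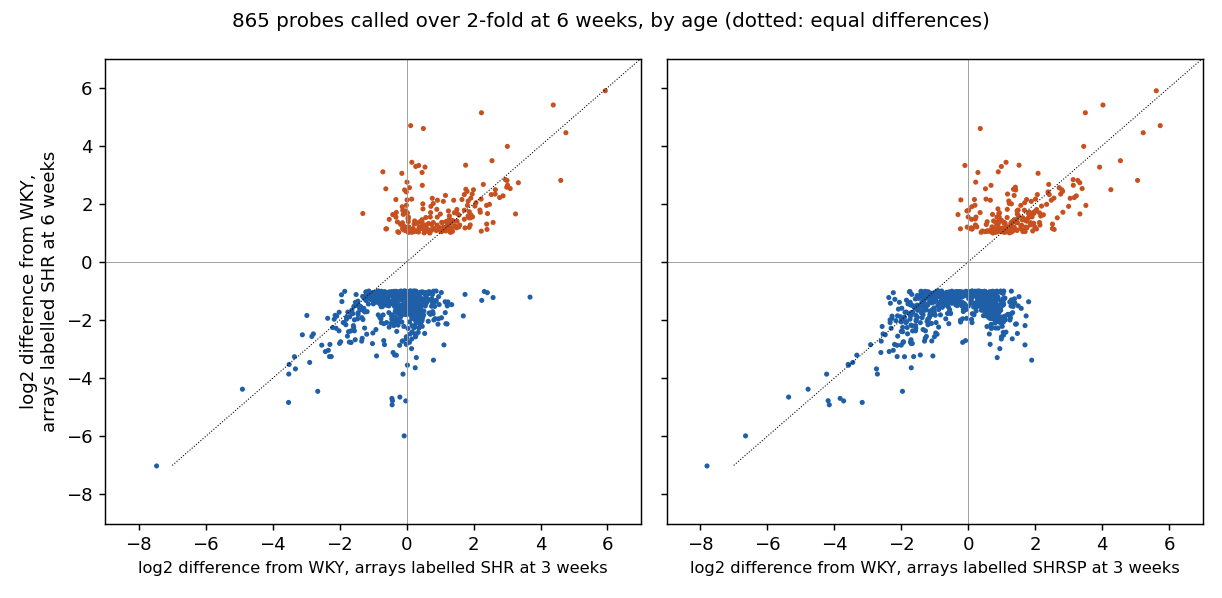
Difference from WKY at 6 weeks of the 865 probes over 2-fold (vertical axis, log2, arrays labelled SHR) against the difference from WKY at 3 weeks (horizontal axis, log2) in arrays labelled SHR (left) and SHRSP (right), with a dotted line where both are equal. Red probes were higher and blue lower at 6 weeks. On the left 238 were called with the same sign and on the right 374, next to 1586 of 19664 and 6061 of 20122 called over all tested probes.

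In the plot of both ages, a group of probes lay near the dotted line in both panels, such as that of Adtrp, with an interaction of -0.04 that was not called. Others lay near 0 on the left and near the line on the right. Among genes above background on all 12 arrays, large interactions were those of Agtrap at -4.45, Cyp2c11 at 3.81, Cyp4a2 at -3.60 and Ephx2 at -3.58. For Agtrap and Ephx2 the arrays labelled SHRSP at 3 weeks had -5.36 and -3.57, close to the differences of the arrays labelled SHR at 6 weeks. Cyp4a2 was 3.64 higher in the arrays labelled SHR at 3 weeks and 4.03 higher in those labelled SHRSP, and at 0.04 at 6 weeks. Cyp2c11 was at -0.71 and 0.90 at 3 weeks.

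Among the lists, 11 of 22 tested genes of blood pressure hormones and 11 of 54 proximal tubule carriers had an interaction called by limma, next to 7.35% of all genes. So had 10 of 37 enzymes of arachidonic acid and steroids, 8 of 32 genes of heat shock and protein folding and 6 of 26 of kidney injury. At the other end were 0 of 42 cell cycle genes and 1 of 37 genes for sodium, chloride and potassium. Agt was at -1.31 in the arrays labelled SHR at 3 weeks and at 1.67 at 6 weeks, an interaction of 2.98 (SE 0.27). Ace was at 0.16 and -1.38, with -1.54. Both of these changed with age under the labels as given, while the arrays labelled SHRSP at 3 weeks had 0.92 for Agt and -0.84 for Ace. Of the genes of heat shock and protein folding, Hspa1b had an interaction of 1.71, Manf of 0.94 and Hspa5 of 0.88.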

How the data were processed

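Kidney RNA was measured on single-colour Agilent arrays. The authors extracted them with Agilent Feature Extraction 10.5.1.1, and per the file headers the deposited intensity is a linear signal, background-subtracted and detrended within each array and not scaled between arrays. The deposited series table holds the same signal, with 0 values that differ. Spots with an outlier mark were left out, the log2 signal of the remaining spots of a probe was averaged, and each array was scaled to the 75th percentile of its spots well above background. Of 30367 probes, 30359 had a usable spot on every array and were fitted, and 20608 mapped to 1 gene symbol, 196 to several and 9563 to none.

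limma 3.58.1 in R 4.3.3 fitted all 18 arrays as 6 groups, with 13.9 degrees of freedom for a test, and p values were adjusted by Benjamini-Hochberg over the probes tested. Python 3.11.15 and pandas 2.3.3 made the summaries. The fit was tested on simulated data, and the outcome is not given here. Members, lists and rules were chosen with earlier results of these data known.

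Genes were named by a rule. It takes the 10 higher and 10 lower genes with the largest differences over 4-fold that were above background on all 6 arrays without overlap, the 12 and 12 with the lowest adjusted p between 1.5-fold and 4-fold, up to 4 called members in each direction and the most abundant of each list, the 5 largest bounds on each side and the 5 largest interactions among genes above background on all 12 arrays. Predicted genes without a proper symbol were left out, and some genes that the rule names are not reported here. Alternatives covered 4 other scalings, another background correction, low signals, filters, array weights, blocks, leaving out arrays, and the other hypertensive label.

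The values given come from the fit without pairs, and an alternative fit takes replicate numbers 1, 2 and 3 as a block. Residuals of arrays with the same number correlated at 0.32, 0.145 and 0.219 over 18401 probes, each best with its own number. The labels do not state pairing.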

Additional observations from a re-analysis of the deposited data

Results flagged for a closer look

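The results below stood out because the strain difference at 6 weeks differed from that at 3 weeks, which comes from other arrays, with a limma adjusted p under 0.05 for the interaction. Each value is the log2 difference of SHR from WKY at 6 weeks minus that at 3 weeks, under the labels as given. Since the nearest match of the hypertensive strains between the ages does not follow their labels, labels exchanged at either age and a change with age cannot be told apart, and the cause was not tested. For Haghl, Hba-a3, Micb and Smpd3 no array of 1 strain was above background at 6 weeks, so the size of the value was not measured. Crabp1 had 1 SHR array above background at that age. For Cyp8b1, Kng2l1 and Serpina3m no WKY array was above background at either age, so neither the size nor the sign of the value was measured.

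Values of more than 1 above 0 were found for Agt at 2.98, Cyp24a1 at 2.47, Cyp2c11 at 3.81, Cyp8b1 at 2.90, Hrg at 1.19, Hspa1b at 1.71, Kng2l1 at 3.19, Serpina3m at 1.02, Smpd3 at 2.73 and Zfp597 at 2.47. Smaller values above 0 were found for Ahrr at 0.63, Aqp3 at 0.62, Bhlhe40 at 0.47, Bhmt at 0.56, Clu at 0.69, Dbp at 0.75, Egf at 0.47, Krt18 at 0.91, Manf at 0.94, Myl11 at 0.73, Pc at 0.53, Ppic at 0.88 and Prnp at 0.57.

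Values under -1 were found for Ace at -1.54, Agtrap at -4.45, Ccn2 at -1.17, Crabp1 at -1.06, Cyp4a2 at -3.60, Defb29 at -1.02, Ephx2 at -3.58, Gclm at -2.07, Haghl at -3.75, Hao1 at -1.89 and Hba-a3 at -5.91. Further genes under -1 were Kng1 at -1.52, Kng2 at -1.49, Micb at -2.59, Slc22a13 at -1.22, Slc9a3 at -1.23, Sult1b1 at -1.09, Tff3 at -1.13, Timd2 at -1.30 and Zfp14 at -1.54.

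Values between -1 and 0 were found for Afm at -0.98, Albfm1 at -0.70, B2m at -0.49, Bdh1 at -0.44, Cbs at -0.49, Chmp1b at -0.39, Cox7c at -0.84, Cryga at -0.67, Cyp4a3 at -0.47 and Eln at -0.71. Next came Fdft1 at -0.86, Fgb at -0.68, Gsta1 at -0.95, Gucy1a1 at -0.64, Gucy1b1 at -0.66, Hgf at -0.93, Hsd17b2 at -0.78, Hsd17b4 at -0.61, Igfbp7 at -0.77 and Igtp at -0.59. The remaining genes were Ptgr1 at -0.68, RT1-N2 at -0.51, Rpl39 at -0.38, Rps19 at -0.49, Rps21 at -0.49, Rps9 at -0.68, Slc15a2 at -0.58, Slc17a3 at -0.46, Slc3a1 at -0.34 and Uqcrq at -0.83.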

How the results depend on the processing

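Against 1292 probes higher at any fold, scaling to the 75th percentile of all probes gave 2280, of probes above background on all arrays 2024, quantile normalization 3222 and the median 3165; fitting only the 6 arrays gave 2027 and array weights 2904. Against 4665 lower, quantile normalization gave 3098, the median 2764 and array weights 8383. Normexp background correction, with an offset of 50 that shrinks differences of dim probes, gave 112 higher and 277 lower over 2-fold and 19 and 16 over 4-fold. Testing only probes above background on all 6 arrays gave 26 and 44 over 4-fold, and raising low signals gave 65 lower.

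Against 350 probes whose 6-week difference lies above their 3-week difference, the first 2 of these scalings gave 692 and 629, quantile normalization 1374, the median 1325, normexp 747, array weights 2002 and the arrays labelled SHRSP at 6 weeks 229. Against 1548 probes whose 6-week difference lies below their 3-week difference, array weights gave 3661. Leaving out each of the 6-week arrays labelled WKY or SHR in turn gave 203 to 295 above and 977 to 1195 below. No 3-week array was left out. Those above fell to 203 without WKY replicate 2, 233 without WKY replicate 3, 224 without SHR replicate 1 and 230 without SHR replicate 3, and those below to 990, 977, 991 and 991 without the same arrays.

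Leaving out each array in turn gave 862 to 1066 higher and 3053 to 3822 lower at any fold, 188 to 213 and 611 to 689 over 2-fold and 54 to 68 and 109 to 127 over 4-fold. Lower probes fell to 3053 without SHR replicate 1.

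With the replicate block, 1237 probes were higher and 4514 lower, and of 954 tested genes of the lists 21 changed their call, Hao2, Per3, Tsc22d3, RT1-A1, RT1-CE16 and RT1-S3 among them. No other gene named in the report and run with it changed its call. Slide as a fixed block could not be fitted; as a random block it gave 1404 and 4946.

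With the arrays labelled SHRSP at 6 weeks in place, the sign of the difference turned for Agtrap (0.25), Ccn2 (-0.46), Clu (-0.083), Cyp26a1 (0.037), Egf (-0.29), Ephx2 (0.20), Haghl (0.054), Hao1 (1.57), Hrg (-0.48), Hspa1b (-0.034), Klf2 (-0.065), Krt18 (-0.10), Ppic (-0.29), Sgk1 (-0.64), Slc4a7 (-0.16) and Zfp597 (-0.10). Of these, Hao1, Hrg, Ppic and Sgk1 were called in the other direction, as was Egf, which the main fit did not call. Agtrap, Ccn2, Clu, Cyp26a1, Ephx2, Haghl, Hspa1b, Krt18 and Zfp597 were not called there, so for them the call was lost and no reversal was measured. The cause was not tested. Without turning, the call was lost there for Ace, Agt, Aqp1, Bdh1, Cldn14, Cry1, Dhrs3, Hao2, Hba-a3, Herpud1, Hsd17b4, Hsd17b7, Krt19, Micb, Nedd4l, Per3, Prodh, RT1-Bb, RT1-Db1, Rbp2, Scd, Slc13a3, Slc22a22, Wnt4 and Zfp14, among others. On leaving out arrays in turn, Hao2 and Dhrs3 lost the call 6 times, Havcr1, Nedd4l, Per3, Scd, Slc4a7 and Wnk4 5 times, Cry1, RT1-N3 and Wnt4 4 times and Kcnma1, Npas2, RT1-DOb and Slc22a22 3 times. Fitting only the 6 arrays lost the calls of Cry1 and Slc22a22. Of 202 named genes, 186 were called. Of these, 16 lost the call with the median, 13 with normexp and 11 with quantile normalization. In every setting that tested them, 122 of the 186 kept the call. Some of these, such as Cyp8b1, Serpina3m and Myo16, which were above background in only 1 strain, were not tested in every setting.

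Strain goes with slide at this age, the nearest match of the hypertensive strains between ages does not follow their labels, and each group has 3 arrays of mixed tissue. Whether probes lie over sequence variants of a strain was not tested.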

Other observations

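Positions of the probes on the rn4 assembly were known for 19192 of those tested, of which 773, or 4.03%, differed by more than 2-fold. The share was highest on chromosome 14, at 6.51%, and lowest on chromosome 12, at 2.36%. Stretches chosen after the values were seen held larger shares, 17.4% of 46 probes on chromosome 14 from 45 to 50 Mb, 16.3% of 49 on chromosome 9 from 5 to 10 Mb, 11.8% of 68 on chromosome 19 from 10 to 15 Mb and 11.4% of 79 on chromosome 11 from 80 to 85 Mb. Genes of the last stretch with such probes were the plasma protein genes Fetub, Hrg, Kng1, Kng2 and Kng2l1, and Prodh.

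Families of genes with shared names are given next to 7.48% of all genes higher and 19.9% lower, with higher and lower counts after scaling to the median in brackets. Only some of the families counted are given, and the others are not reported here. Of 292 tested solute carriers, 32 were higher and 46 lower (76 and 22), with a median of -0.07. Of 6 tested UDP glucuronosyltransferases, enzymes that tag drugs and steroids for excretion, 0 were higher and 4 lower (0 and 4), with a median of -0.80. Of 8 sulfotransferases, 4 were higher and 2 lower (4 and 1), with a median of 0.38. Of 25 chemokine genes, 1 was higher and 10 lower (3 and 9), with a median of -0.26, and of 10 carboxylesterases 0 were higher and 6 lower (1 and 3), with a median of -0.36.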
